A study of Mus musculus with 4 samples.

Results

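The nuclear-encoded respiratory chain genes are the nuclear genes for subunits of the 5 complexes of mitochondrial oxidative phosphorylation, here together with the complex I assembly factors that share the Nduf prefix. Members were taken by symbol: genes whose names begin with Nduf, Uqcr or Atp5, the genes Sdha to Sdhd, and the Cox4i, Cox5, Cox6, Cox7 and Cox8 genes. Symbols that carry the pseudogene mark -ps were left out. Of 32285 annotated genes, 93 had such a name, and 90 of them had at least 50 unique molecular identifiers (UMIs, each standing for 1 captured transcript molecule) in every file. Cox7b2, Ndufa4l2 and Cox8c did not reach that minimum, and Cox8c was listed at 0. Ndufb1-ps was left out for its symbol alone, since the annotation types it as a bidirectional promoter lncRNA and not as a pseudogene. It had at least 23901 UMIs in every file, and the values of complex I below do not include it.

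The cells were muscle stem cells from skeletal muscle of MyoD-KI mice, cultured for 5 days in growth medium and sorted for a high MyoD-tdTomato signal, a fluorescent reporter of the myogenic regulator MyoD. All 4 files carry this one combination of genotype, culture and gate, so the study holds no untreated or reporter-low group for comparison, and a gate on the reporter sets which cells were seen. Transcripts were read from their 3′ ends with droplet-based single-cell RNA-seq. The age and number of the animals are not given in the sources used here. The 4 files are labelled as replicates, but in each pair of files 99.9% of the smaller file's barcodes recurred in the other. A barcode's expression profile had a median correlation of 0.793 to 0.799 with the same barcode in another file, against 0.660 to 0.667 with another barcode. The files are therefore treated as repeat libraries of a single set of cells (n = 1): values are means over the 4 files, their spread is technical, intervals are 95% intervals for counting error at the depth of 1 file, and no test between conditions was made.

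The respiratory chain carries electrons from NADH through complex I, or from succinate through complex II, by way of ubiquinone, complex III and cytochrome c to complex IV, where oxygen is reduced. Complexes I, III and IV pump protons across the inner mitochondrial membrane, and complex V, the ATP synthase, uses that gradient to make ATP. Most subunits come from nuclear genes, but core subunits of complexes I, III, IV and V are encoded by the mitochondrial genome (the mt- genes), whereas complex II is nuclear-encoded throughout. When myoblasts leave the cell cycle and fuse, mitochondrial content is known to increase, and several complex IV subunits have isoforms used mainly in heart and skeletal muscle.

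Of 5985 barcodes, 5944 occurred in all 4 files, and 5481 were kept with a mean of at least 1000 genes and under 10% mt- UMIs; their median was 11048.8 UMIs and 3226.5 genes per file. The other 463 were shallow (median 1206.75 UMIs) and rich in mt- UMIs (median 40.9%). The labelled cell type held in the kept cells: Myod1 stood at 507 CPM (UMIs of a gene per 1e+06 UMIs of the same cells) and the stem cell marker Pax7 at 57.1 CPM. Among lists of 6 markers each, the endothelial list summed to 1.16 CPM, the immune list to 1.33 CPM and the cardiomyocyte list to 3.24 CPM, with 5 of the 6 cardiomyocyte markers under 1 CPM. The fibroblast list summed to 141 CPM, of which 110 CPM was Col3a1, and the pericyte list to 72.8 CPM, of which 50.3 CPM was Notch3.

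A single member set the files apart. Cox8a, the ubiquitous form of complex IV subunit 8, stood at 1669.97 CPM in replicate 1, 1794.31 CPM in replicate 2, 1839.64 CPM in replicate 3 and 1962.10 CPM in replicate 4. Although these are counts of the same cells, this spread was 520 times the counting variance (chi-square per degree of freedom), the highest of all 12895 genes that reached 50 UMIs in every file, with the next gene, Rpl22l1, at 28.7. Replicate 4 was the highest and replicate 1 the lowest in 11 of 11 expression bins, at 1.16 to 1.19 times replicate 1. These bins, described below, are 3 groupings of the same cells. Cox6a1 (428.15, 412.01, 422.50 and 409.36 CPM in replicates 1 to 4) ranked ninth at 12.2, and Atp5g1 was the third member above 5. The median over members was 0.939, against 0.705 over all genes, so the other members varied between files about as counting error allows. Small differences in the Cox8a level are therefore not read below, and summed values are given without it where it moves them.

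**Figure D1:**
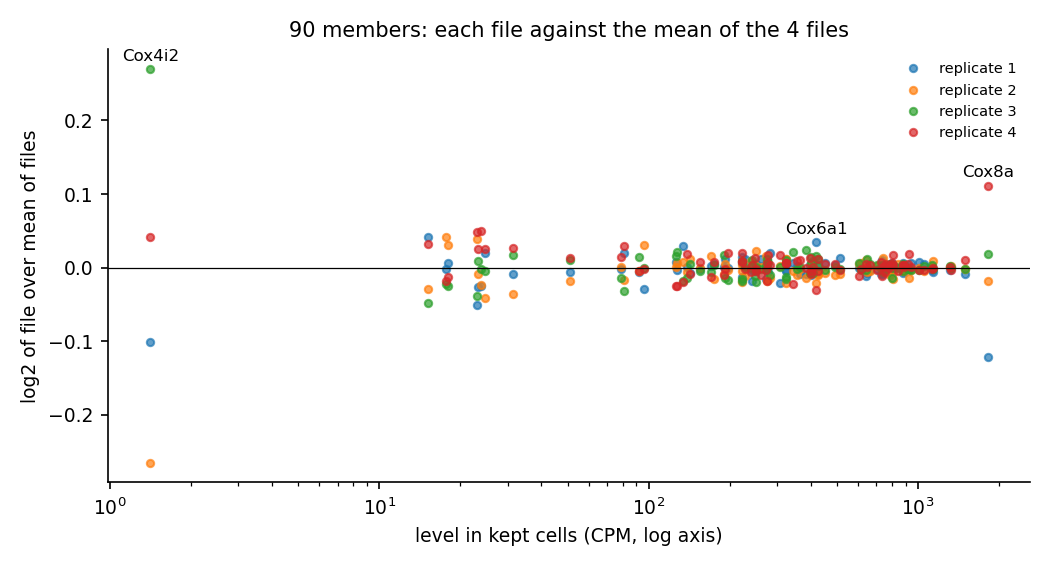
Each member's level in each file relative to its mean over the 4 files (log2, vertical axis) against its level in CPM (log axis); each gene has 1 point per replicate. Cox8a, at the right, departs from 0 in replicates 1 and 4 far more than other members of its level, and the scatter at the left is that of genes with few UMIs.

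Together the 90 members made up 4.20% of all UMIs in the kept cells (4.19, 4.20, 4.21 and 4.22% in replicates 1 to 4), a mean of 505.6 UMIs per cell, and the 13 mt- genes 3.58%. Without Cox8a the members' share was 4.02, 4.02, 4.02 and 4.03%. A 3′ library gives 1 count per captured molecule whatever the transcript's length, so CPM levels of different genes are set side by side without a length correction. Cox8a was the most abundant member at 1816 CPM, followed by Cox4i1 (1497 CPM), the main form of complex IV subunit 4, Ndufa4 (1328 CPM) and Cox7c (1309 CPM). Ndufa4 is counted here with complex I by its name, although its protein is now placed in complex IV. Complex V took 1.35% of all UMIs over 17 genes, complex I 1.21% over 37, complex IV 1.09% over 16 and complex III 0.451% over 8.

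Complex II stood far below them, at 0.0638% of UMIs over its 4 genes, with a median of 141 CPM per gene. The median gene of complex IV was at 812 CPM, of complex V at 762 CPM, of complex III at 535 CPM and of complex I at 278 CPM. The 8 Ndufaf assembly factors, proteins that build complex I but do not stay in it, had the lowest median, 27.6 CPM. Low levels were shared by these factors and the tissue isoforms of complex IV, with Cox4i2 at 1.41 CPM the lowest member of all, Cox6b2 at 15.2 CPM, Cox7a1 at 18.0 CPM, Cox8b at 24.7 CPM and Cox6a2 at 50.9 CPM. Ndufaf5, at 17.7 CPM, and 4 further assembly factors lay between or beside them.

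Members are short genes: their median span in the annotation was 7.33 kb against 24.8 kb over the genes that reached the minimum, and 85.6% of the 90 (77 genes) spanned under 20 kb against 43.5%. Of 89 members with an annotated transcript, 58 shared no 60-base stretch of their last 400 bases with a transcript of another gene, Cox6a2, Cox8b, Cox7a1, Cox8a and Cox6a1 among them. Atp5l, Ndufs3 and Atp5h shared 77.7, 60.7 and 53.6% of such stretches, so reads at their 3′ ends could be split between genes. Their levels are uncertain, as are those of Atp5g2 (49.8%), Ndufs5 (39.1%), Cox7c (37.2%), Atp5g1 (36.6%) and Uqcrb (35.8%). Ndufa13 overlaps Yjefn3 on the same strand and is uncertain too.

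Differentiation was followed by grouping the cells on markers that are no members. Myog, the transcription factor that drives the terminal differentiation of myoblasts, gave 4 bins: below 100, 100 to 1000, 1000 to 3000 and at least 3000 CPM. The sum of Acta1 and Myh3, skeletal actin and embryonic myosin heavy chain, marks cells that make contractile protein and gave bins below 100, 100 to 1000, 1000 to 10000 and at least 10000 CPM. The sum of Mki67 and Top2a, both made by cycling cells, gave bins below 100, 100 to 500 and at least 500 CPM. The bins overlap: 37.3% of cells in the lowest Myog bin had Mki67+Top2a at 500 CPM or more, against 4.35% in the highest, and 97.5% of cells in the highest Acta1+Myh3 bin had Myog at 1000 CPM or more.

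The members took a larger share of the transcripts in the more differentiated cells. From the lowest to the highest Myog bin (1875, 1048, 996 and 1562 cells) they made up 3.77, 4.14, 4.40 and 4.64% of UMIs. Over the Acta1+Myh3 bins (1970, 1613, 1422 and 476 cells) the shares were 3.88, 4.10, 4.52 and 4.80%. Over the Mki67+Top2a bins (3138, 1063 and 1280 cells) they ran the other way, at 4.42, 4.21 and 3.81%. The summed level of the members in the highest Myog bin was 1.23 times that in the lowest, a log2 ratio of 0.297 (0.293 to 0.301, with 0.295 to 0.298 over the 4 files). The Acta1+Myh3 ratio was 1.24 (log2 0.306, 0.300 to 0.312) and the Mki67+Top2a ratio 0.862 (log2 -0.214, -0.218 to -0.210). In every case the difference was far larger than the spread between files, which here measures repeat libraries and not separate cultures.

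The mt- genes moved the same way and by a similar amount in these bins, at 3.32, 3.49, 3.79 and 3.83% of UMIs over the Myog bins, 3.31, 3.51, 3.86 and 4.0% over the Acta1+Myh3 bins and 3.90, 3.30 and 3.21% over the Mki67+Top2a bins. Their summed log2 ratios were 0.206, 0.276 and -0.279. The cell filter caps the mt- share at 10%, which limits how far it can vary. Other transcripts moved with the bins too: the cytosolic ribosomal protein genes took a smaller share in the differentiated cells, with 24.6% of UMIs in the lowest and 21.8% in the highest Myog bin, and 24.5 and 19.2% over Acta1+Myh3. The nuclear RNA Malat1 was at 7857, 7879, 9299 and 8956 CPM over the Myog bins, 7903, 7277, 9303 and 11527 CPM over Acta1+Myh3 and 10568, 4739 and 7159 CPM over Mki67+Top2a. Median UMIs per cell were 11073, 10763.2, 12337.1 and 10682 over the Myog bins, and 10353.6, 10844.8 and 13877.9 over the Mki67+Top2a bins. The part of these in the members' shares was not tested.

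**Figure D2:**
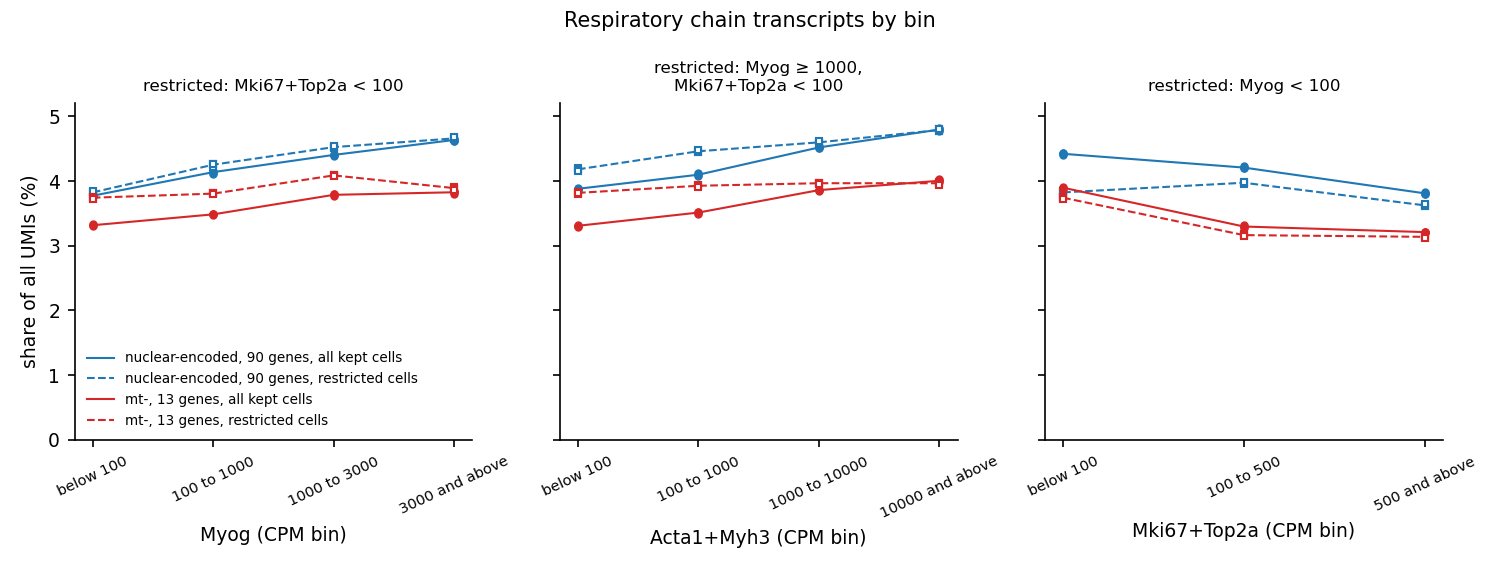
Share of all UMIs (percent) taken by the 90 members and by the 13 mt- genes in each bin of Myog, Acta1+Myh3 and Mki67+Top2a, as the mean with each file as a point; solid lines are all kept cells and dashed lines the restricted cells named above each panel. The member share runs from 3.77 to 4.64% over the Myog bins, and in the restricted cells the mt- lines are flatter than the member lines over Myog and Acta1+Myh3.

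Because cycling and differentiation overlap, the same shares were taken in restricted sets of cells. Among cells with Mki67+Top2a below 100 CPM the members' share over the Myog bins (675, 450, 616 and 1397 cells) was 3.82, 4.25, 4.52 and 4.66%, and the mt- share 3.74, 3.81, 4.09 and 3.89%. The summed log2 ratio of the members was then 0.285 and that of the mt- genes 0.056, a gap of 0.229 (0.225 to 0.232 over the files) where all kept cells gave 0.091. Nuclear and mitochondrial transcripts thus stood apart more among cells with Mki67+Top2a below 100 CPM than among all cells. Within cells that also had Myog at 1000 CPM or more, the members' share over the Acta1+Myh3 bins (82, 327, 1149 and 455 cells) was 4.18, 4.46, 4.60 and 4.79%, and the mt- share 3.82, 3.93, 3.97 and 3.97%. These ratios were 0.196 and 0.055, a gap of 0.141 (0.127 to 0.158 over the files). Among cells with Myog below 100 CPM the members' share over the Mki67+Top2a bins (675, 501 and 699 cells) was 3.82, 3.97 and 3.62%, with the highest value in the middle bin, whereas the mt- share was 3.74, 3.16 and 3.14%.

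Gene by gene, most members shared the direction of the sum. A gene's log2 ratio is that of its CPM + 1 in the highest over the lowest bin, which understates the change of low genes, and a gene is counted as higher or lower when it passes 1.5-fold. Over Myog, 83 of 90 members lay above 0, where 31.2% of all 12894 genes did, but only 6 were higher past 1.5-fold (background 13.1%) and 2 lower (background 38%). The members' median was 0.26 and that of all genes -0.34, so on this scale fewer members than other genes were lower past 1.5-fold, while the share higher was no larger. Over Acta1+Myh3, 76 lay above 0 (background 26.6%), 12 were higher past 1.5-fold (background 12.9%) and 4 lower (background 47%), with medians of 0.27 and -0.52. Over Mki67+Top2a, 10 lay above 0 (background 61.9%), 1 was higher (background 21.4%) and 6 were lower (background 10.8%), with medians of -0.18 and 0.15. In the restricted cells, 82 members lay above 0 over Myog (background 31.2%), with 9 higher (background 12.9%) and 2 lower (background 38.1%). Over Acta1+Myh3, 70 lay above 0 (background 29.9%), with 8 higher (background 12.8%) and 2 lower (background 39.2%). Over Mki67+Top2a, 27 lay above 0 (background 48.1%), with 1 higher (background 11.2%) and 4 lower (background 9.68%), so the members' leaning was weakest there.

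These counts depend on how the bins are scaled. With factors that centre the typical gene, by trimmed mean of M-values (TMM) or by median ratio, the median of all genes moved by 0.33 and 0.34 over Myog, by 0.47 and 0.51 over Acta1+Myh3 and by -0.15 and -0.15 over Mki67+Top2a. Under TMM, 58 members were then higher and 2 lower over Myog (all genes 21 and 26.1%), 75 higher and 2 lower over Acta1+Myh3 (23.3 and 28.2%), and 0 higher and 9 lower over Mki67+Top2a (15.7 and 14.4%). The median-ratio factors gave 63 and 2, 76 and 2, and 0 and 9. The direction of the members' sum was the same under each scaling, while its size and the number of members past 1.5-fold were not. Ratios below are on the CPM scale. Both factors raise ratios over Myog and Acta1+Myh3 and lower those over Mki67+Top2a, so values near 0 can change sign, and the sign of such a value is not read as a direction.

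**Figure D3:**
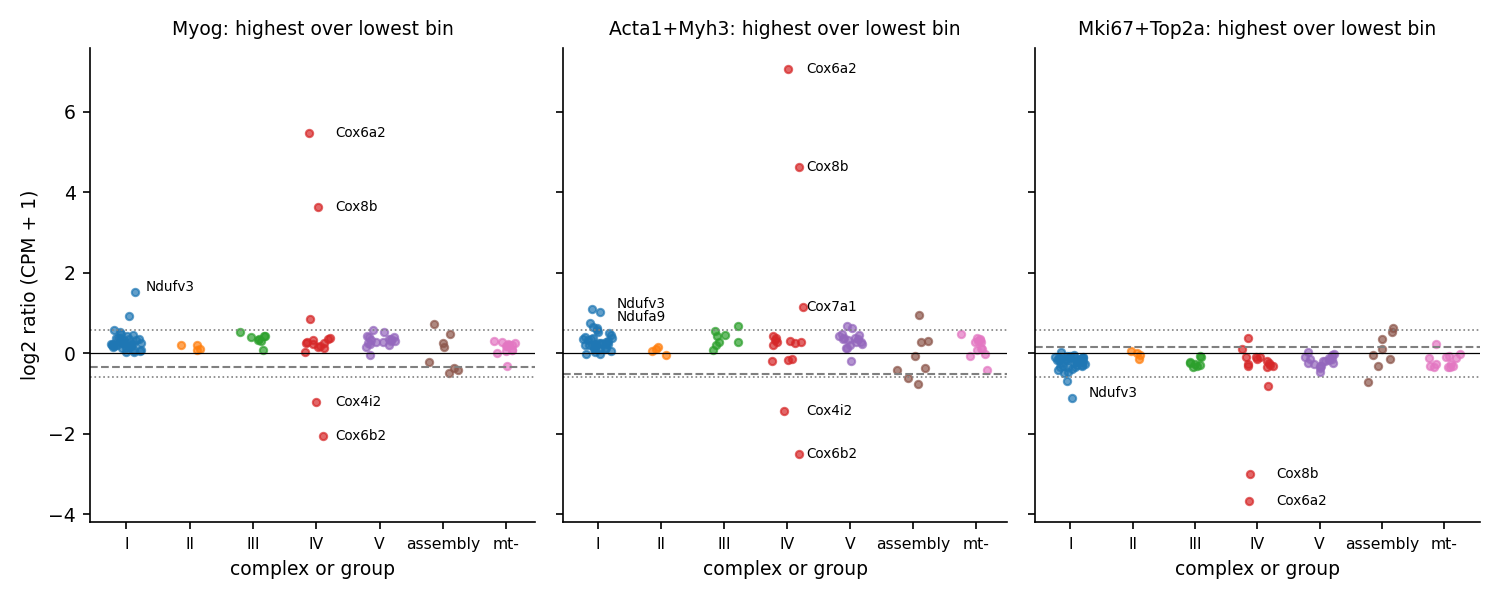
Log2 ratio of CPM + 1 in the highest over the lowest bin for every member, by complex, with the mt- genes beside them; 1 panel each for Myog, Acta1+Myh3 and Mki67+Top2a, each point is 1 gene, the dashed line is the median of all genes and dotted lines mark 1.5-fold. Most structural subunits lie in a narrow band, and Cox6a2 (7.05 over Acta1+Myh3) and Cox8b (4.63) stand far outside it, with Cox6b2 (-2.51) on the other side.

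Complex I, the NADH dehydrogenase, was nearly uniform in direction. All 37 of its subunit genes among the members lay above 0 over Myog, 35 over Acta1+Myh3, and 1 over Mki67+Top2a. Their summed log2 ratios were 0.31, 0.32 and -0.24. Ndufv3, an accessory subunit of the NADH-binding arm, stood apart from the rest. It was at 155.57, 149.77, 151.80 and 155.25 CPM in replicates 1 to 4 of the lowest Myog bin and at 443.22, 434.71, 448.28 and 448.65 CPM in the highest, with 226 and 316 CPM between. The level was higher in each successive bin and the files of the outer bins did not overlap; the log2 ratio was 1.53 (1.47 to 1.59). Over Acta1+Myh3, Ndufv3 stood at 180, 248, 398 and 388 CPM, a log2 ratio of 1.10, and the last bins did not continue the order. Among cells with Mki67+Top2a below 100 CPM its Myog ratio was 1.18. Within those with Myog at 1000 CPM or more its Acta1+Myh3 ratio was 0.03. Its level thus followed the Myog bins, and hardly differed with contractile transcripts among cells high in Myog.

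Ndufa9, an accessory subunit near the ubiquinone site, was at 89.9, 110, 145 and 173 CPM over the Myog bins (log2 0.93) and went from 95.9 to 195 CPM over Acta1+Myh3 (log2 1.02). Unlike Ndufv3, it kept a ratio of 0.58 over Acta1+Myh3 within the cells high in Myog. Ndufa4 gave smaller ratios, 0.26, 0.19 and -0.22 over Myog, Acta1+Myh3 and Mki67+Top2a. In addition, 3 complex I subunits passed 1.5-fold over Acta1+Myh3 and are named after their values were seen: Ndufs4 (0.75, from 162 to 273 CPM), Ndufs5 (0.65) and Ndufb9 (0.62). The level of Ndufs5 is uncertain because of its shared 3′ end.

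As a sum, the assembly factors differed less than the subunits they assemble in all kept cells, but not in every set of cells. Their summed log2 ratios were 0.07, -0.06 and 0.08 (0.44, 0.49 and -0.09 under TMM), against 0.31, 0.32 and -0.24 for complex I. Among cells with Mki67+Top2a below 100 CPM their Myog ratio was 0.279 (0.205 to 0.354), beside 0.282 for complex I. Within those with Myog at 1000 CPM or more the Acta1+Myh3 ratios were 0.140 (-0.056 to 0.338) and 0.199, which counting error does not separate. Single factors had ratios of opposite sign in all kept cells, so a sum near 0 does not mean that each differed little. Over Acta1+Myh3, 1 of the 8 factors was higher past 1.5-fold and 2 were lower. Of the 37 complex I subunits, 5 were higher and 0 lower (background 12.9 and 47%). Ndufaf3, which works early in assembly, stood at 25.5, 26.8, 36.9 and 50.2 CPM over the Acta1+Myh3 bins (log2 0.95; 0.72 over Myog; -0.71 over Mki67+Top2a). Ndufaf2 had the reverse order, at 92.4, 89.1, 68.5 and 53.7 CPM (log2 -0.77; -0.49 over Myog), and was higher in cycling cells, at 63.7, 100.5 and 99.8 CPM over Mki67+Top2a (log2 0.64). Ndufaf6 (-0.42, -0.61 and 0.53) went with Ndufaf2, as did Ndufaf5 (-0.36, -0.41 and 0.36), whose ratio turned to 0.10 under TMM and 0.14 under median-ratio factors over Acta1+Myh3. Ndufaf2 is also among the longest members, spanning 155.9 kb on chromosome 13.

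Complex II, succinate dehydrogenase, which also serves the tricarboxylic acid cycle, differed least of the 5 complexes in all kept cells. Its summed log2 ratios were 0.14, 0.05 and -0.04 (0.51, 0.60 and -0.21 under TMM, again the nearest to 0 of the 5 complexes). That rank did not hold in the restricted cells: over Myog complex IV, at 0.195, lay beside complex II, at 0.199, and over Mki67+Top2a complex V, at -0.022, was nearer 0 than complex II, at 0.063. Sdha, the flavoprotein that oxidizes succinate, gave 0.10, 0.05 and 0.01 over Myog, Acta1+Myh3 and Mki67+Top2a. Sdhb, the iron-sulfur subunit, gave 0.07, -0.05 and -0.05, and its Acta1+Myh3 ratio turned positive under TMM and median-ratio factors. The membrane anchors Sdhc (0.21, 0.16 and -0.14) and Sdhd (0.21, 0.11 and 0.05) were no more than slightly apart from 0. In all kept cells the 4 genes thus lay below the sum of each of complexes I, III, IV and V over Myog and Acta1+Myh3; a test of that gap was not possible with a single set of cells.

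Complex III, the cytochrome bc1 complex, had the largest summed ratios of the 5 in all kept cells, 0.37, 0.40 and -0.25. In the restricted cells it stayed the largest over Myog (0.372) and Acta1+Myh3 (0.283). Over Mki67+Top2a, at -0.062, it lay nearer 0 there than complex I (-0.102) and complex IV (-0.143). Uqcrb, a small subunit at the ubiquinone site, went from 355 to 565 CPM over Acta1+Myh3 (log2 0.67; 0.44 over Myog). Uqcrfs1, the Rieske iron-sulfur protein, gave 0.53 over Myog and 0.46 over Acta1+Myh3, and the small subunit Uqcr10 gave 0.31 and 0.29. The core protein gene Uqcrc1 differed little, at 0.07 and 0.09, so the complex's sum was carried by its other genes. Cyc1, the cytochrome c1 subunit of this complex, falls outside the name rule and is counted below with the electron carriers. It gave 0.29, 0.25 and -0.03 over Myog, Acta1+Myh3 and Mki67+Top2a, and the sums of complex III do not include it.

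Complex V gave 0.31, 0.33 and -0.19. Its largest ratios were those of small membrane subunits: Atp5k, which codes for subunit e, went from 617 to 989 CPM over Acta1+Myh3 (log2 0.68; 0.54 over Myog). Atp5md, whose product sits beside it, went from 544 to 847 CPM (0.64; 0.58 over Myog). The 3 genes for the identical mature proton-carrying subunit c differed from each other. Atp5g1 went from 871 to 1108 CPM over Acta1+Myh3 (log2 0.35) and Atp5g3 from 547 to 661 CPM (0.27). Atp5g2 went from 783 to 683 CPM (-0.20), but to 0.35 and 0.39 under TMM and median-ratio factors, and over Myog from -0.05 to 0.32 and 0.34. Atp5g2 had the lowest ratio of the 3 under each scaling, but Atp5g1 and Atp5g2 are among the genes with shared 3′ ends.

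Atpif1, the inhibitor that binds the ATP synthase and is no member, went against the complex it controls. It stood at 614, 553, 423 and 325 CPM over the Myog bins (log2 -0.92, with -0.96 to -0.86 over the files and -0.55 under TMM), at 595, 548, 358 and 267 CPM over Acta1+Myh3 (log2 -1.15), and at 417, 594 and 535 CPM over Mki67+Top2a (log2 0.36).

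Complex IV, cytochrome c oxidase, had summed ratios of 0.26, 0.25 and -0.22, and it held both the highest and the lowest single ratios. Much of that range lay in isoforms of the same subunit: Cox6a2, Cox7a1 and Cox8b are the heart and skeletal muscle forms of subunits 6a, 7a and 8, for which Cox6a1, Cox7a2 and Cox8a are the widely used forms, while Cox6b2 is known from testis and Cox4i2 from lung. The bases just before the annotated gene start are printed for the muscle forms with a RefSeq promoter entry and for their widely used counterparts, since these pairs moved apart in the same cells (GRCm38.p6, strand of the gene, 5′ to 3′, E-box letters CANNTG in capitals). They lie at chr7:140900447-140900696 (minus strand, 250 bases) for Cox8b, chr19:7217617-7217866 (minus strand, 250 bases) for Cox8a, chr7:30183921-30184143 (plus strand, 223 bases) for Cox7a1 and chr9:79759879-79760103 (minus strand, 225 bases) for Cox7a2.
Cox8b: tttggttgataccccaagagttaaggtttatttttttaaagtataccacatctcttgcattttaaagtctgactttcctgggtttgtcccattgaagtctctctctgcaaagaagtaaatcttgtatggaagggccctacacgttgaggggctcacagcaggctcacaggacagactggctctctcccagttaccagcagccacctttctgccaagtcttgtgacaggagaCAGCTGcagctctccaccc
Cox8a: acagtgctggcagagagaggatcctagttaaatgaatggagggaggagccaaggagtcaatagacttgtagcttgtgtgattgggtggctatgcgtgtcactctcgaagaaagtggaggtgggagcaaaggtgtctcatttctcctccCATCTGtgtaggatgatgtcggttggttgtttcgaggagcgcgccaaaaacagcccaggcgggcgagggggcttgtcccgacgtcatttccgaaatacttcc
Cox7a1: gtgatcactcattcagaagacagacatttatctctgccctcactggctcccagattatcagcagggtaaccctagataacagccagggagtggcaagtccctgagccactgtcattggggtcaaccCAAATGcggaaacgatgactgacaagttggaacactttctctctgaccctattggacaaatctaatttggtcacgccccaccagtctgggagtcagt
Cox7a2: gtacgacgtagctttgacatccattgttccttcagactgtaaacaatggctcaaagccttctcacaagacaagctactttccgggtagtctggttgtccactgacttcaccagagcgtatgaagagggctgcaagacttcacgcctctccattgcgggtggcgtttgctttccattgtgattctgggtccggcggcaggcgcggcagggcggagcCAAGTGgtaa
CANNTG, the general letters read by MyoD and Myog proteins, occurs in each of the 4 windows, as CAGCTG in Cox8b, CATCTG in Cox8a, CAAATG in Cox7a1 and CAAGTG in Cox7a2. It occurred on either strand in 66.2% of the 250-base windows of 32851 promoters and in 62.0% of those of 79 member promoters (74 members had an entry), so its presence does not set these genes apart. The form CAGCTG was in 13 and 7.59%. None of the printed windows holds CCGGAAG, a strict form of the site read by GABP and other ETS factors (6.91% of all and 17.7% of member promoters). Looser forms of the ETS site were not searched. Also absent were AAGGTCA, read by the estrogen-related receptors (4.08 and 6.33%), and TATAAA (12.4 and 8.86%). So were the NRF1 letters GCGCA and GCGC with any base between them (3.74 and 19.0%). All were searched on both strands, and CAGCTG is counted under CANNTG too. A match describes letters and not binding.

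Cox6a2 lies on chromosome 7, from 128205435 to 128206387 on the minus strand, a gene of under 1 kb. In the lowest Acta1+Myh3 bin it was at 1.39, 1.34, 1.94 and 1.71 CPM in replicates 1 to 4. In the second bin it was at 3.36, 3.03, 3.43 and 4.13 CPM, and in the third at 58.81, 61.84, 61.66 and 60.6 CPM. The highest bin held 346.52, 334.96, 342.44 and 345.23 CPM. The files of neighbouring bins did not overlap. The largest step in fold fell between the second and the third bin, and the largest in CPM between the third and the highest. The log2 ratio of the highest over the lowest bin was 7.05 (6.74 to 7.35), and of the Myog bins 5.47 (5.16 to 5.78), where the means were 1.59, 9.90, 86.8 and 113.8 CPM. Within cells with Mki67+Top2a below 100 CPM and Myog at 1000 CPM or more the Acta1+Myh3 ratio was still 6.76. Cox6a2 stood at 2.33 CPM in the lowest and 340.6 CPM in the highest bin there. The lowest held a mean of 1.75 UMIs per file over 82 cells, so the size of that ratio is uncertain. This gene, unlike Ndufv3, thus separated cells that were all high in Myog. Over Mki67+Top2a it was at 89.8, 13.7 and 6.17 CPM (log2 -3.66), but among cells with Myog below 100 CPM that ratio was 0.12.

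Its counterpart Cox6a1 hardly differed, at 413, 430, 427 and 375 CPM over the Acta1+Myh3 bins, a log2 ratio of -0.14 that became 0.40 and 0.44 under TMM and median-ratio factors. As a share of the UMIs of both genes, Cox6a2 was 0.385, 0.804, 12.5 and 47.7% over the Acta1+Myh3 bins. The 4 files gave 47.1, 47.4, 47.7 and 48.6% in the highest bin, and the counting interval was 46.2 to 49.1%. This share does not depend on the scaling of the bins. Over the Myog bins it was 0.389, 2.26, 17.0 and 21.3%, and over Mki67+Top2a 17.3, 3.21 and 1.51%. In the pooled counts of the highest Acta1+Myh3 bin the muscle form, at 342.3 CPM, did not pass Cox6a1, at 375 CPM. The 2 forms were not compared within single cells.

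The share of cells with a Cox6a2 UMI followed the level. In cells thinned to 5000 UMIs, it was 0.791, 1.73, 20.0 and 65.5% over the Acta1+Myh3 bins (1.85, 3.32, 33.3 and 81.2% unthinned; 136, 98, 40 and 10 shallower cells were left out). Cox6a1 was found in 85.2, 86.3, 87.3 and 82.8% of the thinned cells. The lowest bin, whose median depth of 10817.5 UMIs was near the 12380.5 of the highest, serves as the background for such shares.

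Cox8b (chromosome 7, from 140898945 to 140900446, minus strand) showed the same order at a lower level. It was at 4.10, 3.02, 3.79 and 4.29 CPM in the lowest Acta1+Myh3 bin and at 115.81, 120.03, 115.72 and 116.03 CPM in the highest, with 6.64 and 37.7 CPM between. The files of the outer bins lay far apart, and the log2 ratio was 4.63 (3.64 over Myog, -3.01 over Mki67+Top2a). Cox8a stood at 1783, 1843, 1922 and 1563 CPM in the same bins (log2 -0.19, but 0.35 and 0.39 under TMM and median-ratio factors). Cox8b therefore remained the minor form, with 0.213, 0.360, 1.93 and 6.99% of the pair's UMIs. In the highest bin the files gave 7.49, 7.34, 6.73 and 6.38% in replicates 1 to 4, the reverse of the order of the files' Cox8a levels. Thinned cells with a Cox8b UMI made up 2.10, 3.35, 15.8 and 39.6%.

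Cox7a1 (chromosome 7, from 30184144 to 30186078, plus strand) differed much less than Cox6a2 and Cox8b. Its means over the Acta1+Myh3 bins were 12.5, 15.9, 23.6 and 28.9 CPM, with 29.96, 27.29, 29.87 and 28.67 CPM in the files of the highest bin (log2 1.15, 0.89 to 1.41; 0.86 over Myog). It made up 1.42, 1.68, 2.30 and 2.67% of the UMIs of the pair with Cox7a2, which went from 871 to 1054 CPM (log2 0.28). Among cells with Mki67+Top2a below 100 CPM the Cox7a1 share over the Myog bins was 1.73, 2.46, 2.77 and 2.17%, highest in the third bin. The 3 muscle forms thus reached very different shares of their pairs in the same cells, 47.7, 6.99 and 2.67%.

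The isoforms known from other tissues ran the opposite way. Cox6b2 (chromosome 7, from 4751792 to 4753094, minus strand) was at 24.56, 23.02, 23.15 and 24.40 CPM in the lowest Acta1+Myh3 bin and at 2.93, 3.37, 3.93 and 3.20 CPM in the highest (log2 -2.51, -3.02 to -2.0). The files did not overlap between those bins, with 16.6 and 6.68 CPM between them. Its share of the pair with Cox6b1 was 2.75, 1.84, 0.665 and 0.304%, and among cells with both Myog and Mki67+Top2a below 100 CPM it was 3.88%. Over Mki67+Top2a it was at 14.5, 16 and 15.7 CPM, a log2 ratio of 0.11 that turned below 0 under TMM and median-ratio factors and was -0.68 among cells with Myog below 100 CPM. Cox6b1 itself went from 840 to 1101 CPM over Acta1+Myh3 (log2 0.39).

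Cox4i2 was near the limit of these counts, at 2.13, 1.65, 0.686 and 0.155 CPM over the Acta1+Myh3 bins, with 0.31, 0.15, 0.16 and 0.00 CPM in the files of the highest bin; its fitted log2 ratio of -1.44 depends on the pseudocount and is no measure of the fold. Cox4i1, its widely used counterpart, gave 0.22, 0.20 and -0.31. Cox5a (0.18, 0.31 and -0.09) and Cox5b (0.33, 0.33 and -0.29) have no such pairs among the members. Cox7a2l, a supercomplex factor related to subunit 7a, gave 0.13, -0.16 and -0.25, with 0.38 and 0.42 over Acta1+Myh3 under TMM and median-ratio factors.

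**Figure D4:**
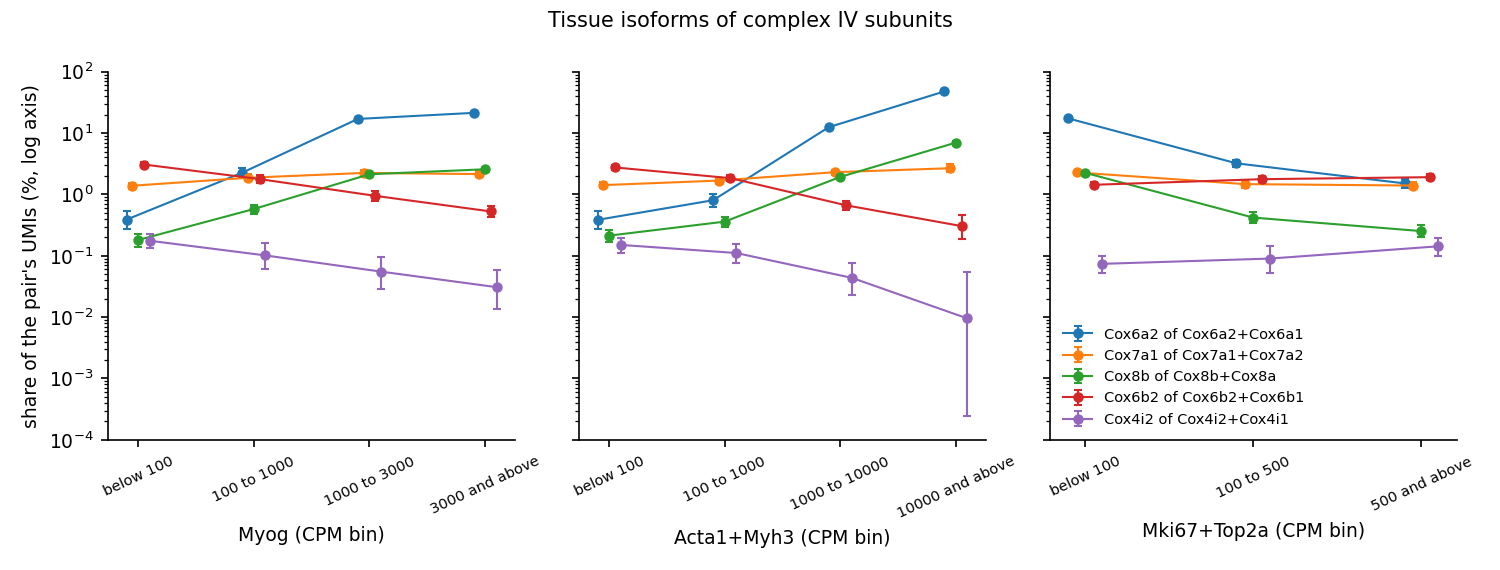
Share of the pair's UMIs (percent, log axis) taken by Cox6a2, Cox8b, Cox7a1, Cox6b2 and Cox4i2 over the bins of Myog, Acta1+Myh3 and Mki67+Top2a; points are means of the 4 files and bars 95% counting intervals. Cox6a2 goes from 0.385 to 47.7% over Acta1+Myh3, Cox8b from 0.213 to 6.99%, and Cox6b2 from 2.75 to 0.304%.

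Some marker lists of other cell types differed between these bins. The fibroblast list summed to 206.7 CPM in the lowest and 25.1 CPM in the highest Acta1+Myh3 bin, and the pericyte list to 118.8 and 17.5 CPM. In the lowest bin the fibroblast sum was mostly Col3a1 (156.6 CPM) and Ly6a (48.9 CPM). Pdgfra, Dcn, Lum and Pi16 were each under 1 CPM there. Notch3 made up 85.4 CPM of the pericyte sum in that bin. These sums thus rested on few genes of each list. The part of the listed genes in the levels of Cox6b2 and Cox4i2 was not tested. Cox8b and Cox7a1 are also used in brown fat and Cox6a2 in heart. The brown adipocyte list summed to 12.5 CPM with 3 of its 6 markers under 1 CPM. Cidea, its highest at 7.1 CPM, stood at 0.888 and 24.4 CPM in those outer bins. The rest of the list did not share that order. Fabp4 stood at 5.29 and 1.02 CPM, Cebpa at 3.58 and 0.0779 CPM and Plin1 at 0.160 and 0.042 CPM. Ucp1 and Adipoq were near 0 in both bins. Without Cox6a2, Cox7a1 and Cox8b the members' summed log2 ratios were 0.292, 0.292 and -0.210, and without Cox8a 0.304, 0.326 and -0.221, so neither the muscle isoforms nor the gene that differed between files made the sums.

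Among the mt- genes, which are copied from both strands of the mitochondrial genome as long precursors, the ratios were not alike. On the CPM scale mt-Nd4 and mt-Nd2, both complex I subunits, gave 0.29 each over Myog, and mt-Cytb of complex III 0.25. mt-Nd3 gave -0.00. mt-Nd6, the only protein gene copied from the other strand, gave -0.33 over Myog, -0.41 over Acta1+Myh3 and 0.23 over Mki67+Top2a, opposite to mt-Nd2 and mt-Nd4, at a level of 36.6 CPM against 6471 CPM for mt-Atp6. Under TMM it gave 0.03, 0.12 and 0.07 and mt-Nd4 0.66, 1.02 and -0.52, so the gap between them stayed while the sign of mt-Nd6 over Myog and Acta1+Myh3 turned. Over Mki67+Top2a, mt-Co1, the catalytic core of complex IV, gave -0.35.

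Per cell, the members' share of UMIs had a median of 4.18% with the 10th and 90th percentiles at 3.03 and 5.48% and extremes of 0.0907 and 8.82%. The same cell had nearly the same share in another file (Pearson's r = 0.964 to 0.966 over 5481 cells, given as a description of repeat counts of the same captured molecules). The correlation of a cell's member share in one file with its mt- share in another was -0.150 to -0.144 (n = 5481); both are shares of the same total, and the filter caps the second.

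The genes around the chain were read from lists that hold no members. Their counts stand beside the shares of all genes given above, 13.1% higher and 38% lower over Myog, 12.9 and 47% over Acta1+Myh3, and 21.4 and 10.8% over Mki67+Top2a. None of 6 carriers and porins passed 1.5-fold in any contrast (under TMM 1 was higher over Myog and 4 over Acta1+Myh3). Of 8 genes for electron carriers and ubiquinone synthesis, 0 passed over Myog, 1 over Acta1+Myh3 (Coq9, needed for ubiquinone synthesis, 0.61) and 1 over Mki67+Top2a (Dhodh, which feeds electrons from pyrimidine synthesis to ubiquinone, 0.59). Of 19 genes for the tricarboxylic acid cycle and pyruvate entry, 3 were higher and 1 lower over Myog, 2 higher and 4 lower over Acta1+Myh3, and 1 higher over Mki67+Top2a. Sucla2 and Suclg2, which form the ATP- and GTP-linked succinyl-CoA ligases, went opposite ways: 0.69 and -0.76 over Myog, 0.74 and -1.43 over Acta1+Myh3. Pyruvate carboxylase, Pcx, gave 1.05 and the pyruvate dehydrogenase subunit Pdhb 0.74 over Myog, while Idh2 gave -0.94 over Acta1+Myh3.

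Of 30 assembly factors for complexes II to V, 5 were higher and 0 lower over Myog, 5 higher and 2 lower over Acta1+Myh3, and 0 higher and 1 lower over Mki67+Top2a. Sco1, a copper chaperone for complex IV, gave the highest values, 1.38 over Myog and 1.47 over Acta1+Myh3, and the copper carrier Cox17 gave 0.86 and 0.65. The lowest over Acta1+Myh3 were Ttc19 (-0.96), a complex III factor, and Cox18 (-0.85), which inserts a mitochondrially made complex IV subunit. Of 78 mitochondrial ribosomal protein genes, 0 were higher and 7 lower over Myog, 0 and 16 over Acta1+Myh3, and 3 and 0 over Mki67+Top2a. The lower genes were thus a smaller share of this list than of all genes, of which 38 and 47% were lower over Myog and Acta1+Myh3. The list's medians were -0.12, -0.19 and 0.13, on the other side of 0 from the members' 0.26, 0.27 and -0.18; under TMM they turned to 0.25, 0.34 and -0.04, with 8 genes higher over Myog and 21 over Acta1+Myh3, still short of the members. The splits of the other lists moved as well: under TMM, higher and lower genes over Myog numbered 5 and 0 for the electron carriers, 9 and 0 for the tricarboxylic acid cycle and 10 and 0 for the assembly factors. Over Acta1+Myh3 they numbered 5 and 0, 10 and 1, and 12 and 0, and over Mki67+Top2a 0 and 1, 0 and 0, and 0 and 5.

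Regulators of mitochondrial biogenesis lay on both sides of 0. Of 18 that reached the minimum (Esrrb did not), 4 were higher and 6 lower over Myog, 3 higher and 7 lower over Acta1+Myh3, and 5 higher and 3 lower over Mki67+Top2a; under TMM the counts were 7 and 3, 5 and 4, and 3 and 3. Over Myog and Acta1+Myh3 these counts were near the background of 13.1 and 38% and of 12.9 and 47%, so they set the list apart from other genes little, and the values that follow describe single genes. Ppargc1a, the coactivator PGC-1 alpha, went from 3.61 to 21.8 CPM over the Myog bins (log2 2.31; 2.97 over Acta1+Myh3; -1.40 over Mki67+Top2a). Esrrg, an estrogen-related receptor, went from 1.17 to 8.01 CPM (2.06; 3.41; -1.70), and Ppara, a receptor that drives fatty acid oxidation genes, gave 1.40, 1.51 and -1.38. All 3 were low genes, and of the outer bins of each axis they were higher in the one where the members' share was higher. The middle bins were not compared for them.

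Nrf1, a transcription factor known for binding respiratory chain promoters, went the other way, from 53.3 to 25.3 CPM over Myog (log2 -1.05; -1.54 over Acta1+Myh3; 1.29 over Mki67+Top2a). So did Ppard (-1.80, -2.10 and 0.70), the PGC-1-related coactivator Pprc1 (-1.01, -1.14 and 0.79), the GABP subunit Gabpb1 (-0.68, -0.74 and 0.97) and the mitochondrial DNA polymerase Polg (-0.72, -0.90 and 0.61). Esrra differed little (0.06, 0.00 and -0.15), and Tfam, which packages and transcribes mitochondrial DNA, gave -0.20, -0.54 and 0.38, where the Myog value turned to 0.16 under TMM and the Acta1+Myh3 value to 0.03 under median-ratio factors. Transcript levels say nothing of the activity of these proteins.

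**Figure D5:**
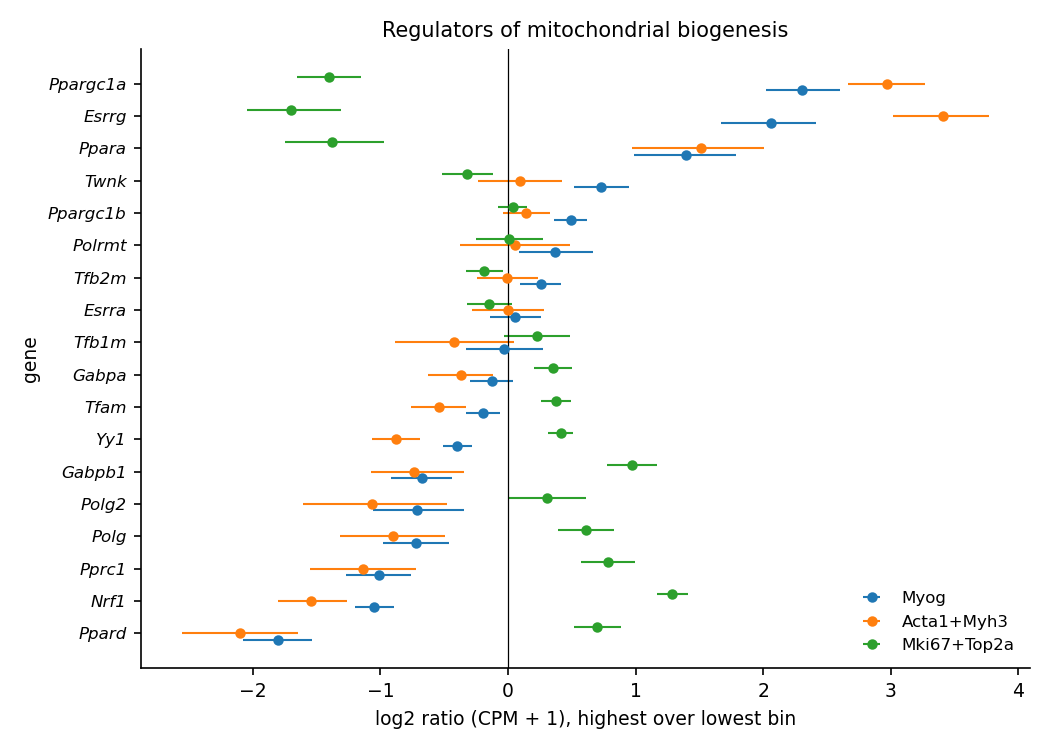
Log2 ratio of CPM + 1 in the highest over the lowest bin (horizontal axis) for each regulator of mitochondrial biogenesis that reached the minimum, for Myog, Acta1+Myh3 and Mki67+Top2a; bars are 95% counting intervals. Ppargc1a, Esrrg and Ppara lie to the right over Myog and Acta1+Myh3, and Nrf1, Ppard and Pprc1 to the left.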

How the data were processed

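The authors deposited filtered count matrices, whole UMI counts per gene and cell, for 4 libraries; the file headers name Cell Ranger 7.1.0, and the submitters' processing notes name Cell Ranger 3.1.0 and the builds mm10 and GRCm39. The treatment of intronic reads is not given in the sources used here. Libraries held 62627341 to 68898900 UMIs. Counts were summed over the kept cells of a bin in each file, scaled to CPM over all UMIs and averaged over the 4 files. Log2 ratios used a pseudocount of 1 CPM, and passing means 1.5-fold; intervals are exact (Poisson for levels, conditional binomial for ratios, Clopper-Pearson for shares) and cover counting error only. No doublet caller was run. Gene positions came from GENCODE M21 (GRCm38), promoters from RefSeq GRCm38.p6. Python 3.11.15 with numpy 2.4.6, scipy 1.17.1 and pandas 2.3.3 was used. The members and lists were chosen with earlier results of these data known. Named members were all tissue or paralogous isoforms, all Sdh genes, the highest and lowest pair of each complex over Myog, and the 5 highest and 5 lowest over the other contrasts. Alternatives covered scaling, pseudocount, filters, bins, thinning and leaving out each file.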

Additional observations from a re-analysis of the deposited data

Results flagged for a closer look

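Of 142 values held against the 4 files, 7 (4.93%, where chance gives about 5%) had 1 file whose gap to the nearest other exceeded 0.829 of the range over the files. These are repeat counts of the same cells. Over Myog, Ndufa4 was at 0.29 in replicate 3 (others 0.25), and Ndufaf5 at -0.48 in replicate 4 (others -0.33 to -0.32). Over Acta1+Myh3, Ndufaf3 was at 0.79 in replicate 4 (others 0.99 to 1.02), and Uqcr10 at 0.33 in replicate 1 (others 0.27 to 0.28). Over Mki67+Top2a, Cox7a1 was at -0.92 in replicate 1 (others -0.77), Uqcr10 at -0.10 in replicate 4 (others -0.08), and the summed members at -0.217 in replicate 3 (others -0.214 to -0.213). All are log2 ratios.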

How the results depend on the processing

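No paired analysis was possible because the 4 replicates are counts of the same cells in a single group. Each value was compared with its counterpart under each alternative that applied to it, so a value is counted several times. Leaving out a file apart, 105 comparisons of summary values stayed within the counting interval or within 1.5 times the count. Another 83 moved beyond it and 0 reversed. Of comparisons of single-gene values 908 stayed, 262 moved and 18 reversed. In the order Myog, Acta1+Myh3 and Mki67+Top2a, the summed members were 0.667, 0.849 and -0.388 under TMM, 0.687, 0.889 and -0.384 under median-ratio factors, 0.305, 0.316 and -0.225 with totals without mt- UMIs, 0.292, 0.287 and -0.209 with 2000 genes and 5% mt- UMIs, 0.289, 0.295 and -0.207 in thinned cells, 0.265, 0.243 and -0.155 with wider upper bins (at least 1000, 1000 and 100 CPM), 0.285, 0.196 and -0.077 within restricted cells, 0.292, 0.292 and -0.210 without the muscle isoforms, 0.304, 0.326 and -0.221 without Cox8a, and 0.319, 0.338 and -0.206 without the 467 cells with Malat1 under 1000 CPM. Means of per-cell CPM gave -0.193 over Mki67+Top2a; over Myog the value was 0.301 with no limit on mt- UMIs and 0.292 with bins from replicates 1 and 2 and values from 3 and 4. The mt- sums were 0.577, 0.819 and -0.453 under TMM, 0.596, 0.859 and -0.449 under median-ratio factors, 0.214, 0.286 and -0.290 with totals without mt- UMIs, 0.145, 0.123 and -0.177 with 2000 genes and 5%, 0.178, 0.254 and -0.249 thinned, 0.149, 0.227 and -0.244 as per-cell means, 0.200, 0.236 and -0.264 with wider bins, and 0.186, 0.246 and -0.305 without the cells low in Malat1. With no mt- limit the Myog value was 0.179, and with bins from other files the Acta1+Myh3 value was 0.257.

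Members past the fold, higher and lower, were 58 and 2, 75 and 2, and 0 and 9 under TMM, and 63, 76 and 0 higher with 2 lower over Acta1+Myh3 under median-ratio factors. At 2-fold, 3 were higher over Myog, 5 higher and 2 lower over Acta1+Myh3, and 0 higher and 3 lower over Mki67+Top2a. With wider bins 6 were higher and 2 lower over Acta1+Myh3. A pseudocount of 10 left 1 lower over Myog, 2 lower over Acta1+Myh3 and 0 higher over Mki67+Top2a; one of 0.1 gave 2 higher over Mki67+Top2a; a minimum of 200 UMIs left 1 lower over Myog. The member share was 4.19% with 2000 genes and 5%, and 4.18% with no mt- limit. The Cox8b share was 6.51% with 2000 genes and 5% and 6.49% with bins from other files. Leaving out each file gave 0.297 to 0.298, 0.304 to 0.306 and -0.215 to -0.213 for the summed members, 0.206 to 0.207, 0.274 to 0.277 and -0.280 to -0.279 for the mt- sums, 4.20 to 4.21% for the member share, 3 to 4 lower members over Acta1+Myh3 with the other member counts as reported, and 47.4 to 47.9% for Cox6a2, 2.65 to 2.72% for Cox7a1 and 6.82 to 7.19% for Cox8b.

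Single genes reversed under scaling. Over Acta1+Myh3, TMM and median-ratio factors gave 0.35 and 0.39 for Atp5g2, 0.40 and 0.44 for Cox6a1, 0.38 and 0.42 for Cox7a2l, 0.35 and 0.39 for Cox8a and 0.10 and 0.14 for Ndufaf5. Over Myog they gave 0.32 and 0.34 for Atp5g2, and median-ratio factors 0.0040 for Ndufaf5. Wider upper bins gave 0.00085 for Cox6a1, 0.0782 for Cox7a2l and 0.0356 for Cox8a over Acta1+Myh3, and 0.0032 for Atp5g1 and 0.0024 for Uqcrc1 over Mki67+Top2a. All these alternatives kept Cox6a2 and Cox8b higher in the differentiated bins: with a pseudocount of 10 CPM, Cox6a2 gave 4.93 over Acta1+Myh3 and Cox8b 3.20. The cause was not tested. With 1 set of cells, no spread between cultures or animals is known, and the intervals cover depth alone.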
